A study of Mus musculus with 8 samples.

Results

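Islands of H3K4me3 that carried neither ASXL1 nor H3K27me3 were selected on the island lists of cultured wild-type MSPCs, the mesenchymal stem and progenitor cells that grow out of mouse marrow. An island is a stretch of the genome that the peak caller found enriched. The members were chosen by the wild-type H3K4me3, ASXL1 and H3K27me3 lists and by width. A member is an autosomal H3K4me3 island of wild type that is narrower than 10000 bp and shares no base pair with an ASXL1 or an H3K27me3 island of wild type. Of the 17884 wild-type H3K4me3 islands, 17395 are autosomal, 16946 of those are narrower than 10000 bp, and 2201 are members. Members were 12.7% of the autosomal islands and held 6.17% of the autosomal H3K4me3 length. The width limit removed no candidate: of 449 autosomal islands of 10000 bp or more, 0 lacked both ASXL1 and H3K27me3, and the widest member was 7800 bp.

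The cells were cultured from bone marrow of the C57BL/6 background and used between passages 5 and 10, in 2 genotypes, wild type and Asxl1-/-. ASXL1 was immunoprecipitated in wild type, and H3K27me3, H3K4me2 and H3K4me3 in each genotype, with 1 library per target and genotype, which gives 7 island lists. How the Asxl1 allele was made, and how many animals the cultures came from, is not given in the sources used here. No difference has a replicate check, so no test was made. Ranges in parentheses after a share are its exact Clopper-Pearson interval at 95%, for counting error alone, and the lists give no read counts, so depth is unknown. The 7 lists held 15276 to 36048 islands. Asxl1 itself was not a member, because its wild-type H3K4me3 island of 7200 bp overlapped an ASXL1 island of 9000 bp. An H3K4me3 island of 6200 bp lay there in Asxl1-/-, and the lists cannot check the genotype.

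H3K4me3 is placed around transcription starts by the COMPASS family of methyltransferases and is a usual mark of active promoters, above all of those rich in CpG dinucleotides. H3K4me2 covers promoters and also enhancers. ASXL1 is a chromatin regulator that binds the deubiquitinase BAP1, and H3K27me3 is the mark of Polycomb repressive complex 2 on silent genes. In the cells described here the rule therefore picks H3K4me3 sites at which neither the regulator nor the repressive mark was called.

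Members held promoters of different kinds, and 7 of them are printed here as the 200 bases before a start in the RefSeq promoter table. That start can lie inside the gene as its outer ends are annotated: at Galnt15 it is 32029103, while the gene begins at 32028782, so the whole window is within the gene. Capitals mark CpG dinucleotides. Hjurp has the widest member. Cep290 stands for cilium genes, Nt5e is the stromal marker with a member, and Zfp956 is a zinc finger gene. Dglucy had the largest width ratio of Asxl1-/- over wild type among members of at least 1000 bp at a gene, and Galnt15 and Mst1r are starts whose members had no H3K4me3 island in Asxl1-/-. The sequences are from RefSeq on GRCm38.p6, whose coordinates are those of mm10.
Hjurp, chr1:88277580-88277779, minus strand: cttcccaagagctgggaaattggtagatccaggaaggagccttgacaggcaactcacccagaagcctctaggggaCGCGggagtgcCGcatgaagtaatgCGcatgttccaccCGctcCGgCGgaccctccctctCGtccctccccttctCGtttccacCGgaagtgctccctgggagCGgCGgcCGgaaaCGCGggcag
Cep290, chr10:100487382-100487581, plus strand: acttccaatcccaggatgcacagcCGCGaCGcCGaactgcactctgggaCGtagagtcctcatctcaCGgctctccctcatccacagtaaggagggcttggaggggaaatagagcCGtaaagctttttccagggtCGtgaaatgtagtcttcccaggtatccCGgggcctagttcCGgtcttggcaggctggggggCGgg
Nt5e, chr9:88327409-88327608, plus strand: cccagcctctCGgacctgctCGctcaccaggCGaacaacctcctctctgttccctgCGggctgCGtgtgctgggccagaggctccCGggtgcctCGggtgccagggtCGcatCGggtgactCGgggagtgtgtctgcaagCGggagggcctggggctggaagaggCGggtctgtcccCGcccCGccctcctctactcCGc
Zfp956, chr6:47953190-47953389, plus strand: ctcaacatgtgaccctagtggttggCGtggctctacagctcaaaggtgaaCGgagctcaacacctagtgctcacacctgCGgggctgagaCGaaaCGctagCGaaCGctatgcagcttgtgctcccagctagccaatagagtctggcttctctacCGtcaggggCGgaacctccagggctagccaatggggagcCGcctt
Dglucy, chr12:100778857-100779056, plus strand: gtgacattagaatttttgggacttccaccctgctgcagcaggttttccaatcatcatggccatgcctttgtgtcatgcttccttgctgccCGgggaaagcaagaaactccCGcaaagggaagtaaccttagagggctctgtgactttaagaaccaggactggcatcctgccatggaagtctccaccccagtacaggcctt
Galnt15, chr14:32028903-32029102, plus strand: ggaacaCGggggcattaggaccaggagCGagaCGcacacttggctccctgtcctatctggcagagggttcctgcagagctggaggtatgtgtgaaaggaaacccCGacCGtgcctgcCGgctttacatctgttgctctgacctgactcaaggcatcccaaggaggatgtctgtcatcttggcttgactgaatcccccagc
Mst1r, chr9:107906689-107906888, plus strand: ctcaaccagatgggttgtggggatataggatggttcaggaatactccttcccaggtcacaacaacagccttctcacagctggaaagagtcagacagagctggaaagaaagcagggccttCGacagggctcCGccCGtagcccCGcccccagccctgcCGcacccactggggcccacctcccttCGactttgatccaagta
These windows held 15 CpG at Hjurp, 11 at Cep290, 15 at Nt5e, 10 at Zfp956, 2 at Dglucy, 6 at Galnt15 and 6 at Mst1r. The letters CCAAT, those of a promoter element, were on the printed strand at Cep290, Zfp956 and Dglucy and on the other strand at Hjurp.

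The values that chose the members are given as a description. The median distance from a member to the nearest ASXL1 island was 25000 bp (quartiles 9200 and 66400), and to the nearest H3K27me3 island 49000 bp (14000 and 140600). Just inside the rule, 70 members had an ASXL1 island within 1000 bp and 78 an H3K27me3 island within 1000 bp, and the smallest gap was 0 bp for each. Just outside it, 9 islands overlapped ASXL1 by 200 bp, which is 1 step of the caller's grid, and no H3K27me3, and 22 overlapped H3K27me3 by 200 bp and no ASXL1. The other islands under the width limit were 11371 with ASXL1 only, 2106 with H3K27me3 only and 1268 with both.

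Members were narrow. Their median width was 1600 bp, with quartiles of 1200 and 2400 bp and 95% of members at or under 3800 bp. Islands with ASXL1 only had a median width of 4000 bp (quartiles 2800 and 5400), those with H3K27me3 only 1800 bp and those with both 3800 bp. Width is part of the rule only through the limit, yet a wide island has more room to meet an ASXL1 or H3K27me3 island, so the narrowness of members was not read as a finding.

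**Figure D1:**
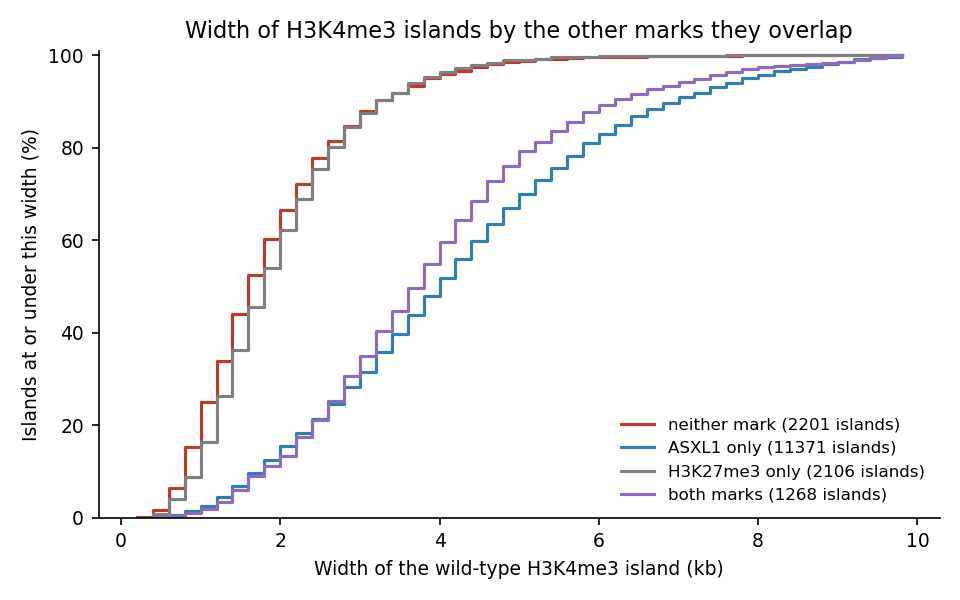
Share of autosomal wild-type H3K4me3 islands at or under a given width (x axis, kb; y axis, percent), 1 line per class of overlap with ASXL1 and H3K27me3. The line of the 2201 members runs close to that of the islands with H3K27me3 only (medians 1600 and 1800 bp), and islands with ASXL1 lie to the right (medians 4000 and 3800 bp).

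Taken over all widths, members lay away from gene ends more often than the other classes. A gene end is the start or the far end of an annotated protein-coding gene, and an island within 1000 bp of one counted as being there. Of the 2201 members, 741 were at a gene end, which is 33.7% (31.7 to 35.7), against 64.7% of islands with ASXL1 only, 65.2% with H3K27me3 only and 79.3% with both. Members and islands with ASXL1 only differ in width, and in each the share at gene ends was larger at larger width. At gene ends lay 13.6% of members under 1000 bp and 22.4% from 1000 to under 2000 bp. From 2000 to under 4000 bp the share was 50.3%, and from 4000 bp up 81.8%. The same 4 classes gave 12.7%, 13.3%, 54.1% and 84.2% for islands with ASXL1 only, and 36.7%, 58.4%, 77.3% and 78.4% for islands with H3K27me3 only. At like width, members were above the islands with ASXL1 only from 1000 to under 2000 bp, and in the other 3 classes the intervals overlap. Members narrower than 4000 bp were below the islands with H3K27me3 only.

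Of the members away from gene ends, 48.3% (705 of 1460) lay within a protein-coding gene. No annotated gene end of any kind lay within 5000 bp of 873 members, which is 39.7% (37.6 to 41.7). Members at gene ends had a median width of 2400 bp and the others of 1400 bp. Where strand was known and a member touched 1 end of its gene, it was at the start in 85.5% (82.5 to 88.1) of 634 cases. Ends of 2 or more genes shared 103 members, and 24 members held starts of genes on opposite strands, so a member is not always assigned to 1 gene.

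In all, 833 protein-coding genes had a member at an end, which is 6.74% (6.30 to 7.19) of the 12368 autosomal genes with any H3K4me3 island there. For 704 of the 833, member islands were the only H3K4me3 islands at the gene. Among non-coding genes, 250 members lay at ends of long non-coding RNA genes and 180 of these were at no protein-coding gene end. The 250 are 11.4% of members, against 15.6% of all autosomal islands under the width limit. Of the 250, 162 had H3K4me3 in Asxl1-/-, 64.8% (58.5 to 70.7), where 57.2% of all members did. The 250 include members at protein-coding gene ends, where 82.5% of members did, and the share for the 180 alone is not given here. Transfer RNA genes had 14 members, of which 11 were retained, and microRNA genes had 10, of which 7 were retained. The 14 are 0.636% of members, against 0.749% of all autosomal islands under the width limit, and the 10 are 0.454%, against 1.12%. Members of 2400 bp at Mir146b and of 1800 bp at Mir30a had no H3K4me3 island in Asxl1-/-; these genes were chosen after their values were seen.

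The 10 widest members were at ends of genes with unlike functions, and all 10 had an H3K4me3 island in Asxl1-/-. Strand was not known for Gpt, Mfsd3, Recql4, Adgre5, Slc26a11 and Hid1. The widest, 7800 bp at chr1:88272601-88280400, covered the start of Hjurp, the chaperone that loads the centromeric histone CENP-A. It was 7000 bp wide in Asxl1-/-, within an H3K4me2 island of 8200 bp in wild type and 7000 bp in Asxl1-/-. The next, 7200 bp on chromosome 15, covered all of Gpt, an alanine transaminase gene, and part of Mfsd3, which encodes a transporter-like protein. It ended within 1000 bp of Recql4, a RecQ helicase gene, without overlapping it. In Asxl1-/- that region was part of a 27200 bp island that also took in another wild-type island. The shared promoter of Fkbp14, a collagen-folding prolyl isomerase, and Plekha8 measured 7000 bp in wild type and 7800 bp in Asxl1-/-. Adgre5, an adhesion G protein-coupled receptor also called CD97, measured 6800 and 5600 bp. Cemip, which promotes hyaluronan breakdown, measured 6600 and 5400 bp, and Nacc2 6600 and 7000 bp. The member at Sgsh, a lysosomal sulfatase, and Slc26a11 measured 6200 and 7000 bp, and that at Abtb1 and Podxl2 5800 and 7600 bp. The member at Dpp3, a dipeptidyl peptidase, and Peli3 measured 5800 and 5400 bp. Members of the same 5800 bp at Edem2 and Pla2g15, outside the 10 by gene name alone, measured 4200 and 6600 bp in Asxl1-/-. Hid1 went from 6000 to 3000 bp, the largest change in proportion among those of the 10 that were matched 1 to 1. Width among these wide members thus moved up at some and down at others.

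Gene lists of the cell's basic machinery had from none to 2 genes with a member each, and the centriole and cilium list had 6. The lists are given as genes with a member out of genes with H3K4me3, to be read against 6.74% for all genes. Apart from the cilium list, the interval of each list of this kind takes in that share, so none is set apart from it. Cytosolic ribosomal proteins had 0 of 26 (interval up to 13.2%), the respiratory chain 0 of 28, peroxins 0 of 15, tRNA synthetases and tRNA modification 0 of 38, the proteasome 0 of 29, and RNA polymerases I and III 0 of 25. Mitochondrial ribosomal proteins had 1 of 28 (Mrps22), RNA polymerase II and Mediator 1 of 34 (Polr2k), DNA repair 2 of 32 (Ercc2, at its start, and Ercc1, at its far end, both nucleotide excision repair), DNA replication 2 of 28 (Pold1, the catalytic subunit of DNA polymerase delta, and the primase Prim1), and GPI anchor and glycosylation 2 of 26 (Pigs, at its far end over the start of Unc119, and Alg10b). Centriole and cilium genes had 6 of 31, which is 19.4% (7.45 to 37.5). The interval is wide and its lower bound is close to the share of all genes. It makes no allowance for the 21 lists looked at.

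The 6 cilium genes were Cep290 and Cep164, proteins of the transition zone and of the distal appendages, Ift22, an intraflagellar transport protein, and Bbs1, Bbs4 and Bbs9, subunits of the BBSome. All 6 members were retained, where 82.5% of all members at gene ends were. Cep290, with Tmtc3 on the other strand, went from 3400 to 4600 bp, Cep164 from 3000 to 4600 bp and Ift22 from 2600 to 3600 bp. Bbs9 went from 2200 to 3200 bp, Bbs1 from 1800 to 3600 bp, and Bbs4 was 2800 bp in each genotype. The widths were thus larger in Asxl1-/- at 5 of 6 and equal at the other, where 62.1% of all members matched 1 to 1 were wider. That share is for members at any position, and the share at gene ends alone is not given here.

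The lists of cell identity genes given here were small, each with at most 1 gene with a member. The interval of each takes in the 6.74% of all genes, so none is set apart from it. Of 24 stromal stem cell markers 23 had H3K4me3, and 1 of those, Nt5e, had a member; it encodes the ecto-5'-nucleotidase CD73, and measured 2000 bp in wild type and 2400 bp in Asxl1-/-. Adipocyte genes had 1 of 14 (the fatty acid carrier Fabp4, 2200 and 4000 bp), and cartilage genes 0 of 8. Markers of other cell types were seldom marked by H3K4me3: 5 of 19 blood, 3 of 12 endothelial and 4 of 11 epithelial genes, none with a member. Of neuronal genes 4 of 8 were marked, with 1 member at the far end of the tubulin gene Tubb3, 1000 bp wide and not retained. Of testis and germ line genes 2 of 21 were marked, and the member at the far end of Hormad1 covers the start of its neighbour Golph3l.

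Zinc finger genes named Zfp had members more often than other genes; they were grouped after their values were seen. Members lay at 55 of 324 Zfp genes with H3K4me3, which is 17.0% (13.1 to 21.5), against 778 of 12044 other protein-coding genes, 6.46% (6.03 to 6.91). They sat on 57 islands, of which 22 were on chromosome 7 and 9 on chromosome 17, so many are neighbours. Their median width was 2000 bp, and 2400 bp for members at other genes. H3K4me3 was retained at 50 of the 57, 87.7% (76.3 to 94.9), and at 82.0% (78.9 to 84.8) of the members at other gene ends, so these intervals overlap. Members of 3800 bp at Zfp28 and 4000 bp at Zfp956 measured 4200 and 6200 bp in Asxl1-/-. The H3K4me2 island at Zfp28 was narrower than its H3K4me3, at 2600 bp in wild type and 3400 bp in Asxl1-/-. In single 1 Mb windows, chosen after their counts were seen, chromosome 7 from 24000001 to 25000000 held 10 members, 9 of them retained, and some of the 10 lay at ends of Zfp235, Zfp114, Zfp111, Zfp108 and Zfp94. The densest window, chromosome 13 from 21000001 to 22000000, held 18 members of 44 islands under the width limit, 12 of them at transfer RNA genes, and 14 of the 18 were retained.

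H3K4me2 accompanied nearly all members. An H3K4me2 island overlapped 2130 of the 2201 in wild type, 96.8% (95.9 to 97.5), against 99.9% of islands with ASXL1 only, 99.4% with H3K27me3 only and 99.9% with both. It covered the whole member in 70.5% of cases (68.6 to 72.4). The H3K4me2 island had a median width of 2600 bp and a median of 1.5 times the member's width, with 1.26 times at gene ends and 1.67 times elsewhere. In Asxl1-/-, H3K4me2 lay on 81.7% (80.1 to 83.3) of members. Of the members with H3K4me2 in wild type, 354 had none in Asxl1-/-, which is 16.6% (15.1 to 18.3), against 5.38% of all autosomal H3K4me3 islands under the width limit. These 2 shares are of islands of unlike width. From the narrowest to the widest class, H3K4me2 in Asxl1-/- lay on 65.5%, 78.2%, 91.1% and 99.1% of members. For islands with ASXL1 only it was 73.2%, 83.8%, 96.2% and 99.6%. Members were below these from 1000 to under 4000 bp, and in the narrowest and the widest class the intervals overlap.

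The 71 members without H3K4me2 in wild type were narrow, with a median width of 800 bp, and 27 of them, 38.0% (26.8 to 50.3), were retained. The widest at a gene was 2400 bp at the protocadherin Pcdhb2. Next were 1800 bp at Snurf and 1600 bp at the start shared by Peg3 and Usp29, which are imprinted genes, expressed from the paternal copy. None of these 3 members had H3K4me2 in either genotype or H3K4me3 in Asxl1-/-. The other member named here, 1400 bp at the purine nucleoside phosphorylase Pnp2, had 1000 bp of H3K4me3 and 1600 bp of H3K4me2 in Asxl1-/-. Of further imprinted genes, chosen after their values were seen, Mkrn3 had a member of 2000 bp that was not retained, and Plagl1 had 1 of 1800 bp that measured 2400 bp in Asxl1-/-.

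In Asxl1-/-, H3K4me3 was missing at more members than at H3K4me3 islands as a whole. An H3K4me3 island of Asxl1-/- overlapped 1258 members, called retained here, which is 57.2% (55.1 to 59.2), against 79% of all autosomal islands under the width limit. The other 943, 42.8%, were not retained, against 21% of all those islands. The share retained was 82.7% for islands with ASXL1 only, 73.8% with H3K27me3 only and 92.4% with both. The class means compare islands of unlike width, and retention was higher at larger width in each class. From the narrowest to the widest class it was 33.6%, 47.2%, 74.8% and 97.3% for members, and 29.3%, 36.7%, 78.1% and 97.0% for islands with ASXL1 only. At like width members were above these from 1000 to under 2000 bp, and in the other 3 classes the intervals overlap. With H3K27me3 only the shares were 38.8%, 65.1%, 88.5% and 93.8%, above those of members from 1000 to under 4000 bp, with overlapping intervals in the narrowest and the widest class.

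Position divided the members further. H3K4me3 was retained at 82.5% (79.5 to 85.1) of the 741 members at gene ends and at 44.3% (41.7 to 46.9) of the 1460 others. At gene ends the share by width class was 65.2%, 71.6%, 87.2% and 97.8% for members, and 55.0%, 76.8%, 97.0% and 99.4% for islands with ASXL1 only. Away from gene ends it was 28.7%, 40.1%, 62.3% and 95% for members and 25.5%, 30.5%, 55.8% and 84.5% for islands with ASXL1 only. So among gene-end islands from 2000 to under 4000 bp, members were retained less often than islands with ASXL1 only, and away from gene ends from 1000 to under 2000 bp they were retained more often, with intervals that do not overlap. Islands with H3K27me3 only gave 50.7%, 69.7%, 90.4% and 94.7% at gene ends, where each interval overlaps that of members. Away from gene ends they gave 31.9%, 58.6%, 82.3% and 90.5%. There they were above members from 1000 to under 4000 bp. Members touching gene starts and no far end were retained in 409 of 469 cases, 87.2% (83.8 to 90.1), and members touching far ends and no start in 14 of 36, 38.9% (23.1 to 56.5). Of the 873 members with no gene end within 5000 bp, 36.8% (33.6 to 40.1) were retained.

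**Figure D2:**
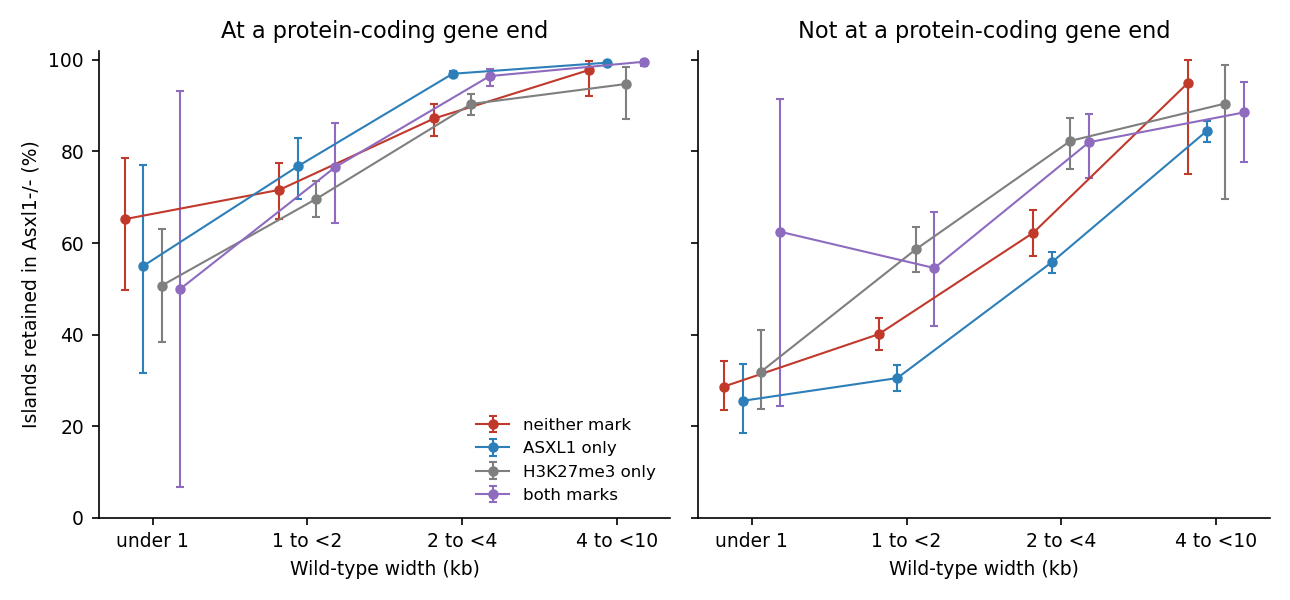
Share of wild-type H3K4me3 islands overlapped by an H3K4me3 island of Asxl1-/- (y axis, percent), by wild-type width (x axis, kb) and class of overlap with ASXL1 and H3K27me3. The left panel has islands at protein-coding gene ends and the right panel the others, and bars are exact 95% intervals. Members climb from 65.2% to 97.8% at gene ends and from 28.7% to 95% elsewhere.

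Where H3K4me3 was not retained, H3K4me2 often was. Of the 899 members that had H3K4me2 in wild type and were not retained, 563 had H3K4me2 in Asxl1-/-, 62.6% (59.4 to 65.8), and of the 1231 retained ones 98.5% did. Shifted islands were few, since 25 of the 943 had an H3K4me3 island of Asxl1-/- within 1000 bp. Among the retained, 96.7% were covered over at least 50% of their width, 58.9% over all of it, and 62 shared their island in Asxl1-/- with another wild-type island. At Hoxc5, named after its values were seen, a member of 1200 bp lay under an island of 21400 bp in Asxl1-/-.

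The widest members at genes that were not retained measured 3200 to 4400 bp, so the widest members of all are not among them. The member of 4400 bp at Galnt15, of the glycosyltransferase family that starts O-linked glycans, had H3K4me2 islands of 5200 bp in wild type and 3800 bp in Asxl1-/-. At Mst1r, the receptor tyrosine kinase RON, H3K4me3 of 3600 bp had no match in Asxl1-/- while H3K4me2 measured 3800 bp in wild type and 5200 bp in Asxl1-/-. At Sema3a, a secreted axon guidance ligand, the member was 3400 bp and H3K4me2 went from 3600 to 1600 bp. At Lrrtm2, a synaptic adhesion protein, it was 3600 bp and H3K4me2 went from 5000 to 2800 bp. At the far end of Atrn, which encodes attractin, it was 4000 bp and H3K4me2 went from 4400 to 2800 bp. The sodium channel gene Scn3a, with 3600 bp of H3K4me3 and 4200 bp of H3K4me2, and the protocadherin Pcdhga6, with 3800 and 1200 bp, had neither mark in Asxl1-/-. At Apol6, an apolipoprotein L gene, the member was 3200 bp and H3K4me2 went from 4000 to 3200 bp, and an H3K27me3 island of 8800 bp in Asxl1-/- covered 1000 bp of it. Thus 6 of these 8 members had an H3K4me2 island in Asxl1-/-.

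Members matched 1 to 1 between the genotypes were wider in Asxl1-/- on the whole. There were 1196 such members, 743 wider in Asxl1-/-, 123 equal and 330 narrower, with median widths of 2000 bp in wild type and 2400 bp in Asxl1-/-. The median ratio of Asxl1-/- over wild type was 1.22 (interval of the median 1.17 to 1.25), against 1.08 for islands with ASXL1 only, 1.25 with H3K27me3 only and 1.1 with both. At least 1.5 times wider were 394 members, 32.9%, against 19.2% of all 1 to 1 islands under the width limit. At least 1.5 times narrower were 118, 9.87%, against 6.68%. Members had to be called in each genotype to be counted, and the narrow ones often were not, so this ratio describes the members that were retained. The matched islands also differed in wild-type width. Their medians were 2000 bp for members, 4400 bp with ASXL1 only, 2000 bp with H3K27me3 only and 3800 bp with both. Neither the ratio nor the shares past 1.5 times were compared at like width.

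**Figure D3:**
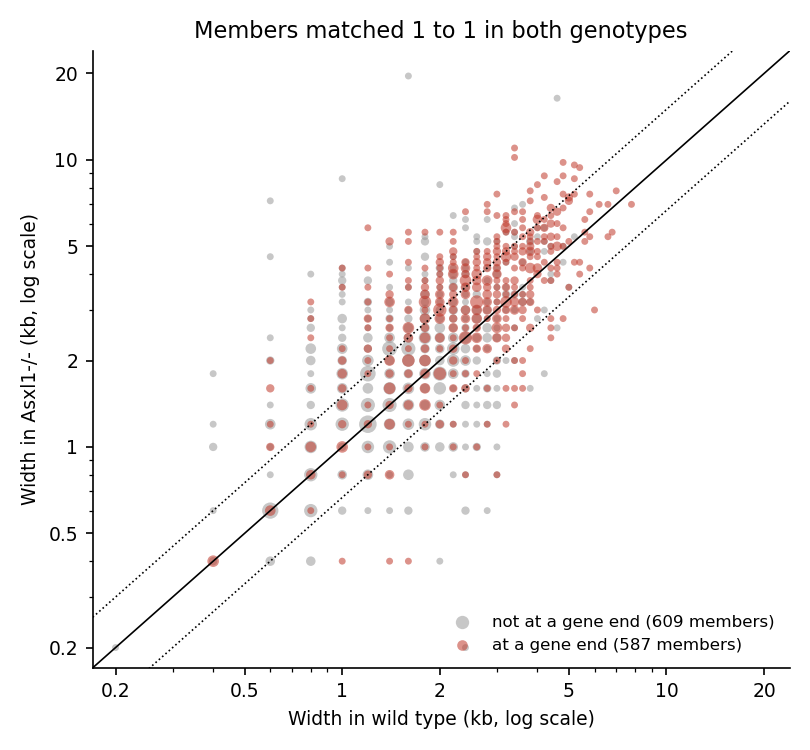
Width in wild type (x axis, kb, log scale) and in Asxl1-/- (y axis, kb, log scale) of the 1196 members matched 1 to 1. Point area grows with the number of members at the same pair of widths, red points are at protein-coding gene ends and grey points elsewhere, the solid line marks equal width and the dotted lines 1.5 times wider and narrower. More members lie above the solid line (743) than below it (330).

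Among members at a gene and of at least 1000 bp, the largest ratios were mostly at narrow members. Dglucy, a D-glutamate cyclase gene, went from 1200 to 5800 bp, 4.83 times as wide, and its H3K4me2 from 2200 to 9000 bp. Pla2r1, the receptor of secreted phospholipase A2, went from 1000 to 4200 bp, and its H3K4me2 from 1800 to 5600 bp. The member between Hoga1 and Ankrd2 and the member at Olfml2a each went from 1400 to 5200 bp, but H3K4me2 at Olfml2a went from 7000 to 5600 bp. Rilp, at the far end of Prpf8, went from 1200 to 4200 bp. Unc93b1, which carries nucleic-acid-sensing Toll-like receptors, went from 1600 to 5600 bp, and its H3K4me2 from 3400 to 17800 bp. Igtp, an interferon-induced GTPase, went from 1600 to 5200 bp, and Fstl3, an inhibitor of activins, from 3400 to 11000 bp. H3K4me2 was wider in Asxl1-/- at 7 of these 8 members.

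By the same limits, the smallest ratios were at Zswim2, from 1600 to 400 bp, Gprin3, from 3000 to 800 bp, Pkhd1l1, from 1400 to 400 bp, and Setmar, from 2400 to 800 bp. Each of these 4 was covered over less than 50% of its wild-type width. H3K27me3 islands of Asxl1-/- lay on Gprin3 (5400 bp) and Pkhd1l1 (4600 bp) and on neither of the other two.

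The 4 widest members without an annotated gene end within 5000 bp were wider than 95% of all members. They lay inside Mnat1 at chr12:73122001-73127200, inside Tiam1 at chr16:89957601-89962600, inside Nfyc at chr4:120813601-120818400 and outside any protein-coding gene at chr9:41325401-41330200. Their widths were 5200, 5000, 4800 and 4800 bp in wild type and 5400, 3600, 4400 and 5000 bp in Asxl1-/-. H3K4me2 lay on all 4 in wild type and Asxl1-/-. Whether they are exonic or intronic, and whether they are unannotated starts, was not tested. The next one, 4600 bp inside Tcf20 at chr15:82937601-82942200, had no H3K4me3 or H3K4me2 in Asxl1-/- and lay under an H3K27me3 island of 105600 bp.

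H3K27me3, absent from all members in wild type by the rule, was called on 195 of them in Asxl1-/-. That is 8.86% (7.71 to 10.1), against 2.31% of islands with ASXL1 only and 3.37% of all autosomal islands under the width limit that lacked H3K27me3 in wild type. At gene ends it was 12.4% (10.1 to 15.01) of members and elsewhere 7.05% (5.79 to 8.49). H3K27me3 covered the whole member in 127 of the 195, and 120 of the 195 were retained in H3K4me3. A wild-type H3K27me3 island lay within 5000 bp of 25.6% of the 195 and of 10.7% of the other 2006.

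At the widest members with H3K27me3 in Asxl1-/-, H3K4me3 was also present in Asxl1-/-. H3K27me3 covered all 5400 bp of the member at Ppp1r13b, a p53-binding protein gene, in an island of 30600 bp, with H3K4me3 of 4000 bp in Asxl1-/-. It covered all 5000 bp at Pald1, in an island of 17800 bp, with H3K4me3 of 7200 bp. At Dpp3 and Peli3 it reached over 1400 bp, at Thop1, a peptidase gene, over 1400 bp, and at Zbtb39 over 800 bp, in islands of 13800, 5800 and 22000 bp. At the member between Lcn2, the secreted iron-siderophore binder lipocalin 2, and Ciz1 it reached over 2600 bp. Since each mark was measured in a population of cells, the marks may lie on different cells or alleles.

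Retention and H3K27me3 differed between chromosomes, and at several of them whole-chromosome coverage was low or high with them. Retention was lowest on chromosome 3, 39 of 119 members, 32.8% (24.4 to 42.0), where Asxl1-/- covered 0.532 of the wild-type H3K4me2 length and 0.222 of the H3K27me3 length. It was highest on chromosome 9, 113 of 142, 79.6% (72.0 to 85.9), where these ratios were 1.17 and 1.53, and was 73.7% on chromosome 11 and 71.6% on chromosome 10, where the H3K4me2 ratio was 1.13 and 1.35. Chromosome 1 went the other way, with 42.4% (33.6 to 51.6) at an H3K4me2 ratio of 0.988. The share of members at a protein-coding gene end differed too. It was 19.3% on chromosome 3, 46.5% on chromosome 9, 44.1% on chromosome 11 and 39.6% on chromosome 10. Chromosome 15 went the other way, with 21.3% at gene ends and 64.0% retained. H3K27me3 in Asxl1-/- lay on 0 of 119 members of chromosome 3 (interval up to 3.05%), 22.5% of chromosome 15, 19.6% of chromosome 12 and 18.8% of chromosome 14. The H3K27me3 length ratio was 1.21 on chromosome 15, 1.87 on chromosome 12 and 2.04 on chromosome 14, and chromosome 9, at 1.53, had H3K27me3 on 7.04% of members. On the 10 autosomes whose H3K4me2 ratio lay within 0.2 of the autosomal median on the log2 scale, 53.0% of members were retained and 7.53% had H3K27me3. The parts of whole-chromosome coverage and of gene-end position in the results for chromosomes and for single members were not tested.

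**Figure D4:**
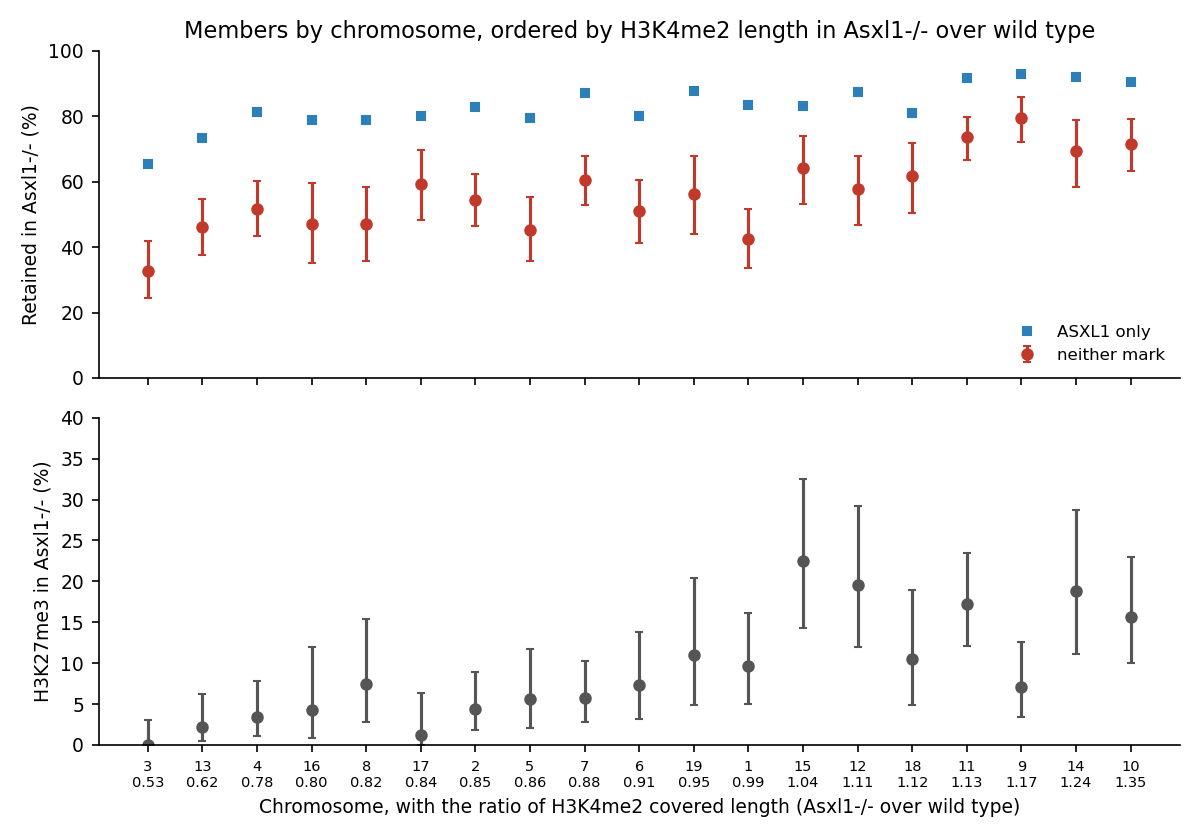
Members by autosome, ordered from left to right by the H3K4me2 length of Asxl1-/- over wild type, which is printed under each chromosome. The upper panel gives the percent retained in H3K4me3 for members (red, exact 95% intervals) and for islands with ASXL1 only (blue squares), and the lower panel the percent of members with H3K27me3 in Asxl1-/-. Members run from 32.8% on chromosome 3 to 79.6% on chromosome 9, and lie below the islands with ASXL1 only on each autosome.

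The promoters of members were poorer in CpG than those of other H3K4me3 islands. Promoter windows of 300 bases, 250 before and 50 after a start, were counted in the class of the island that held the start. For members these were 833 windows of 742 genes, and 649 of the 833 protein-coding genes with a member had a sequence. The windows were not limited to protein-coding genes: all autosomal windows came from 25720 genes, where the autosomes hold 20665 protein-coding ones. A gene with more than 1 start gave more than 1 window, and the intervals count each window as independent. The CpG ratio of observed over expected had a median of 0.567 for members, 0.801 with ASXL1 only, 0.706 with H3K27me3 only, 0.774 with both and 0.211 for starts without H3K4me3. A ratio of at least 0.6 was found in 45.5% (42.1 to 49.0) of members, 77.4% with ASXL1 only and 67.5% with H3K27me3 only. Within members, the median was 0.601 where H3K4me3 was retained (697 windows) and 0.415 where it was not (136 windows). The ratio reached 0.6 in 50.1% (46.3 to 53.8) of the former and 22.1% (15.4 to 29.97) of the latter. A single member can depart from this: Dglucy, with 2 CpG in the printed 200 bases, was retained. Galnt15 and Mst1r, with 6 CpG each in theirs, were not. The printed windows give counts and not this ratio. CpG content and width go together with class, and their separate parts were not tested.

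**Figure D5:**
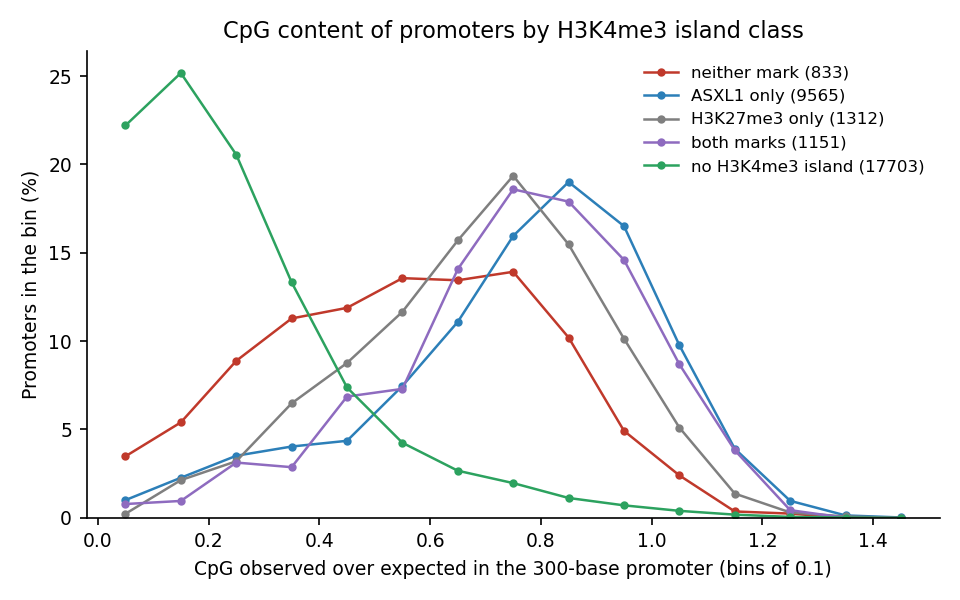
CpG observed over expected in 300-base promoter windows (x axis, bins of 0.1) and the percent of windows of each class in the bin (y axis), by the class of the H3K4me3 island that holds the start. The curve of the 833 member windows (median 0.567) is flat between the curve of starts without H3K4me3 (median 0.211) and that of starts with ASXL1 only (median 0.801).

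Of 7 motifs searched on either strand, CCAAT and the AP-1 motif were in a larger share of member windows than of windows with ASXL1 only. The GC box, the ETS motif and the cAMP response element were in a smaller share, and the intervals of these 5 do not overlap. Those of the E-box and the TATA box do. Because the intervals count windows of 1 gene as independent, they are too narrow where a gene has several starts. No motif holds another in full. The GC box, the ETS motif, the cAMP response element and the E-box hold a CpG. CCAAT, the AP-1 motif and the TATA box hold none. Member windows had a median of 13 CpG, against 22 with ASXL1 only. The motifs were not compared at like CpG content, so the part of CpG content in these shares was not tested. CCAAT was in 43.3% (39.9 to 46.8) of member windows, 37.5% with ASXL1 only and 37.3% of all windows. The GC box GGGCGG was in 52.6%, 66.3% and 36.0%, and the ETS motif CCGGAAG in 10.9%, 20.3% and 9.0%. The E-box CACGTG was in 8.64%, 10.5% and 7.14%, and the cAMP response element TGACGTCA in 0.960%, 3.61% and 1.83%. The TATA box TATAAA was in 7.68%, 6.14% and 13.6%, and the AP-1 motif TGANTCA in 7.20%, 4.75% and 7.85%. At Zfp genes with a member, CCAAT was in 30 of 52 windows, 57.7% (43.2 to 71.3), and in 47.5% of the windows of all Zfp genes. These matches are letters in a window and say nothing of binding.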

How the data were processed

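Of the 8 samples, 7 have an island list, and the input library is not analysed here. Per the submitters' processing notes, BWA, SICER 1.1 and the build mm10 were used; control and settings were not given in the sources used here. Each deposited list holds the authors' island start and end positions on a 200 bp grid, made per library, with no count, score or p-value. Overlap of at least 1 bp was computed in Python 3.11.15 (numpy 2.4.6, pandas 2.3.3, scipy 1.17.1), and overlap counts were equal with bedtools 2.31.1. On a simulated list lacking 200 of the 2201 members, 200 were recovered, an outcome the construction fixes. Starts are printed 1-based. Gene positions, strands and promoters came from RefSeq tables of GRCm38.p6; exons and introns were not assigned. Of 499 list genes 2 were not matched by symbol.

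Members and lists were chosen with earlier results of these data known. Named genes are the 10 widest members at a gene, the 8 widest not retained, the 8 largest and 4 smallest 1 to 1 width ratios from 1000 bp up, the 4 widest without H3K4me2, the 4 widest far from genes, the 6 widest with H3K27me3 in Asxl1-/- and up to 4 per list, passing over clone names and breaking ties by gene name. The result of 1 list is not reported here. Alternatives covered the overlap, the window, the width, the chromosomes and the list length.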

Additional observations from a re-analysis of the deposited data

How the results depend on the processing

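No paired analysis was possible because each target and genotype is 1 library and the labels carry no replicate numbers. The number of members stayed within 1.5 times under all 5 alternatives, from 1932 to 2806. Using the wider 50% of the wild-type H3K4me3 list, 214 members remained, with a median width of 4000 bp, 77.6% at gene ends, 100% with H3K4me2, 93.0% retained, a median width ratio of 1.12 and 10.3% with H3K27me3 in Asxl1-/-. The share at gene ends was 29.4% with an end inside the island, 44.5% within 5000 bp and 44.8% with all annotated genes. Retention was 71.0% with the H3K4me3 lists cut to the same number of widest islands, 53.0% on the 10 autosomes near the median of H3K4me2 coverage and 60.1% without chromosomes 3, 4 and 13, an alternative chosen after seeing the data. On the 10 autosomes the width ratio was 1.14 and the H3K27me3 share 7.53%, and with 50% of the member covered that share was 7.50%. The cut to the widest islands left 1250 members. It and the wider 50% leave out narrow members by construction. The cause of the shifts was not tested. The other alternatives, members with neither mark within 2000 bp among them, stayed within the intervals of the values reported. Of 71 named pairs of gene and member, 65 had the same retention call when 50% of the member had to be covered, and Zswim2, Gprin3, Pkhd1l1, Setmar, Ercc1 and its neighbour Cd3eap lost it. Without read counts, a weak signal and no signal cannot be told apart.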

Other observations

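On the X chromosome, which the rule leaves out, 110 of 488 H3K4me3 islands under 10000 bp had neither ASXL1 nor H3K27me3 in wild type, which is 22.5% (18.9 to 26.5). Their median width was 1900 bp and 56.4% (46.6 to 65.8) lay at a protein-coding gene end. H3K4me2 lay on 105 of the 110. In Asxl1-/-, H3K4me3 was retained at 87, 79.1% (70.3 to 86.3), and H3K27me3 lay on 34, 30.9% (22.4 to 40.4). The labels do not give the sex of the animals.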
